A study of Homo sapiens with 12 samples.

Results

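The expression of 10 genes of epithelial-mesenchymal transition (EMT) was examined in rhabdomyosarcoma (RMS) cells with and without depletion of the histone demethylase KDM3A. The genes were 7 transcription factors (SNAI1, SNAI2, TWIST1, TWIST2, ZEB1, ZEB2 and PRRX1) and 3 markers of the mesenchymal state (VIM, FN1 and CDH2). They were taken by gene symbol from a table of 65975 genes, and the list was drawn up with earlier results of these data known. RNA-seq had been performed on 12 libraries in 4 groups of 3. RD is an established line of fusion-negative RMS (FN-RMS), and Rh30 is an established line of fusion-positive RMS (FP-RMS), the subtype that carries a PAX-FOXO1 fusion. Each line carried either a non-targeting lentiviral shRNA (Scramble) or KDM3A-sh2, a single shRNA against KDM3A, and all 4 groups had been selected with puromycin. Each subtype was thus represented by 1 line and the depletion by 1 shRNA. RD cells were grown in DMEM and Rh30 cells in RPMI, so that line and medium cannot be told apart in a comparison between the lines.

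EMT is the program by which epithelial cells loosen their junctions and take on the shape and motility of mesenchymal cells. Zinc finger factors of the SNAI and ZEB families repress epithelial genes such as E-cadherin by binding E-boxes in their promoters, while the basic helix-loop-helix factors TWIST1 and TWIST2 and the homeobox factor PRRX1 also drive mesenchymal expression. Vimentin, fibronectin and N-cadherin are the proteins most often used to score the mesenchymal state. RMS cells express regulators of the skeletal muscle lineage, and several EMT factors also act during normal muscle development. The RNA-seq had been performed to define the genes whose expression depends on KDM3A in each line.

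Values were FPKM, a level scaled by transcript length and by the number of mapped reads, so that levels may be compared between genes. Summed FPKM ranged from 1198300 to 1254376 in the RD libraries and from 1331935 to 1379197 in the Rh30 libraries, and read depth is unknown. KDM3A was at 33.5 ± 2.50 FPKM in RD Scramble and 12.2 ± 1.09 FPKM in RD KDM3A-sh2 (SD, n = 3). In Rh30 the corresponding levels were 29.7 ± 2.14 and 14.1 ± 1.15 FPKM, and the groups did not overlap in either line. KDM3A thus fell to 0.36 of its Scramble level in RD and to 0.48 in Rh30. The muscle regulators MYOD1 and MYOG were expressed in both lines, whereas MYF5 was listed at or near 0 in every group. NOS1, TFAP2B and OLIG2, which mark fusion-positive cells, were below 0.1 FPKM in both RD groups and above 10 FPKM in both Rh30 groups, whereas FGFR4, the other marker of that list, was expressed in RD as well (115 FPKM in RD Scramble and 522 FPKM in Rh30 Scramble). The 4 blood and 4 endothelial markers had group means of at most 0.935 FPKM, and E-cadherin (CDH1) had at most 0.082 FPKM in any library. Triplicates are not described as separate cultures, so p-values measure the spread between these libraries, which may be technical. The labels of the Rh30 Scramble libraries all end in the same number, whereas in each other group the end number differs between libraries. What this number stands for is not stated.

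In RD cells, KDM3A-sh2 was accompanied by higher levels of all 3 mesenchymal markers and of PRRX1, and by a lower level of SNAI1. FN1 rose 1.92-fold and PRRX1 1.65-fold, whereas SNAI1 fell to 0.62 of its Scramble level. SNAI2, TWIST1, ZEB1 and ZEB2 did not pass the test. In all, 4 of the 9 members tested were higher and 1 was lower at an adjusted p below 0.05 (limma on log2(FPKM + 1), Benjamini-Hochberg over all genes tested). Over all 17988 genes tested in RD, 21.6% were higher and 19.5% were lower. The median log2 fold change was 0.15 over the members and 0.01 over all genes tested. TWIST2 was under the mean of 1 FPKM required for the test.

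In Rh30 cells, the EMT transcription factors moved in both directions. SNAI1, SNAI2, TWIST1 and PRRX1 rose, ZEB1 and ZEB2 fell, CDH2 fell to 0.54 of its Scramble level, and VIM rose 1.10-fold. FN1 did not pass the test. Of the 9 members tested, 5 were higher and 3 were lower, against backgrounds of 15.3% and 13.2% of the 17803 genes tested. Among the higher ones, PRRX1 reached the mean required for the test only through its KDM3A-sh2 libraries. The median absolute log2 fold change was 0.39 over the members and 0.18 over all genes tested in Rh30, while in RD it was 0.16 over the members and 0.22 over all genes.

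**Figure D1:**
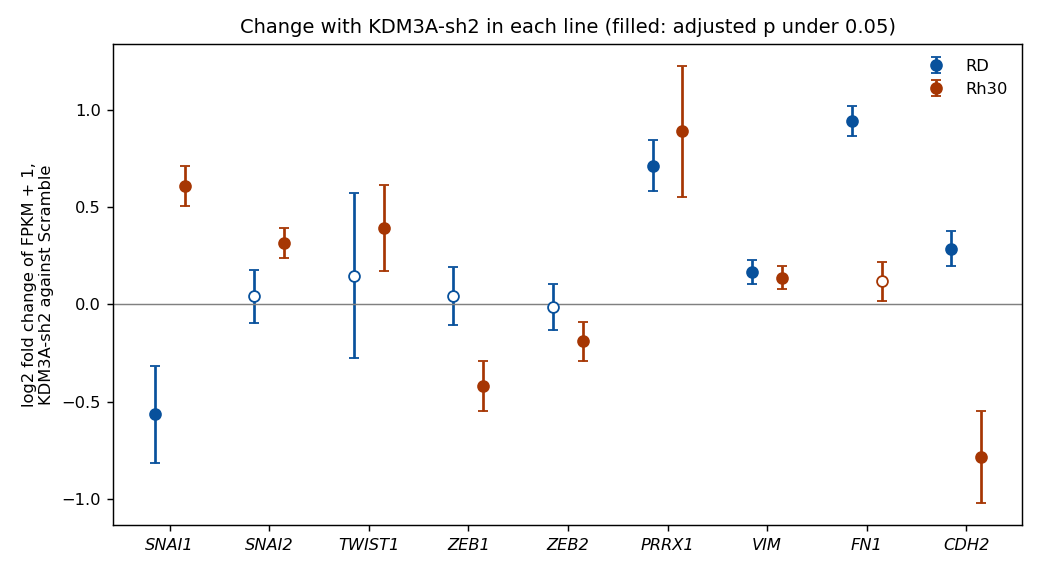
Log2 fold change of FPKM + 1 (vertical axis) for KDM3A-sh2 against Scramble in RD (blue) and Rh30 (brown), with bars for the 95% confidence interval of the limma fit on 3 libraries per group and filled circles for an adjusted p below 0.05. SNAI1 and CDH2 lie on opposite sides of 0 in the 2 lines, PRRX1 and VIM lie above 0 in both, and the change of FN1 is larger in RD.

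The effect of KDM3A-sh2 differed between the lines for 5 of the 9 members, by the interaction of line and shRNA. The effect in Rh30 minus that in RD was above 0 for SNAI1 and SNAI2 and below 0 for ZEB1, FN1 and CDH2. These 2 higher and 3 lower calls stand beside 14.4% higher and 13.4% lower among the 18517 genes tested. With all libraries rescaled to the same summed FPKM, the counts over all genes moved from 2665 higher and 2486 lower to 2061 higher and 3015 lower, and those over the members to 1 and 5. KDM3A itself was depleted less in Rh30, with log2 fold changes of -1.39 in RD and -1.02 in Rh30. By the same interaction, without rescaling, this difference was 0.37 (adjusted p = 0.0388). Its part in the results of the members was not tested.

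The lines also differed at baseline. Between the Scramble groups, SNAI1, SNAI2 and ZEB1 were higher in Rh30, and ZEB2, PRRX1, VIM, FN1 and CDH2 were higher in RD. These were 3 higher and 5 lower calls for Rh30 against RD among 9 members, where 35.0% of all 18357 genes tested were higher and 39.6% were lower. Among the lower ones, PRRX1 reached the mean required for the test only through its RD Scramble libraries. In RD Scramble cells the order of mean levels was VIM, FN1, CDH2, SNAI2, ZEB2, PRRX1, ZEB1, SNAI1, TWIST1 and TWIST2, and only the neighbours SNAI2 and ZEB2 overlapped in their libraries. In Rh30 Scramble cells it was VIM, FN1, SNAI2, SNAI1, ZEB1, ZEB2, CDH2, TWIST1, PRRX1 and TWIST2, with no overlap between neighbours.

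**Figure D2:**
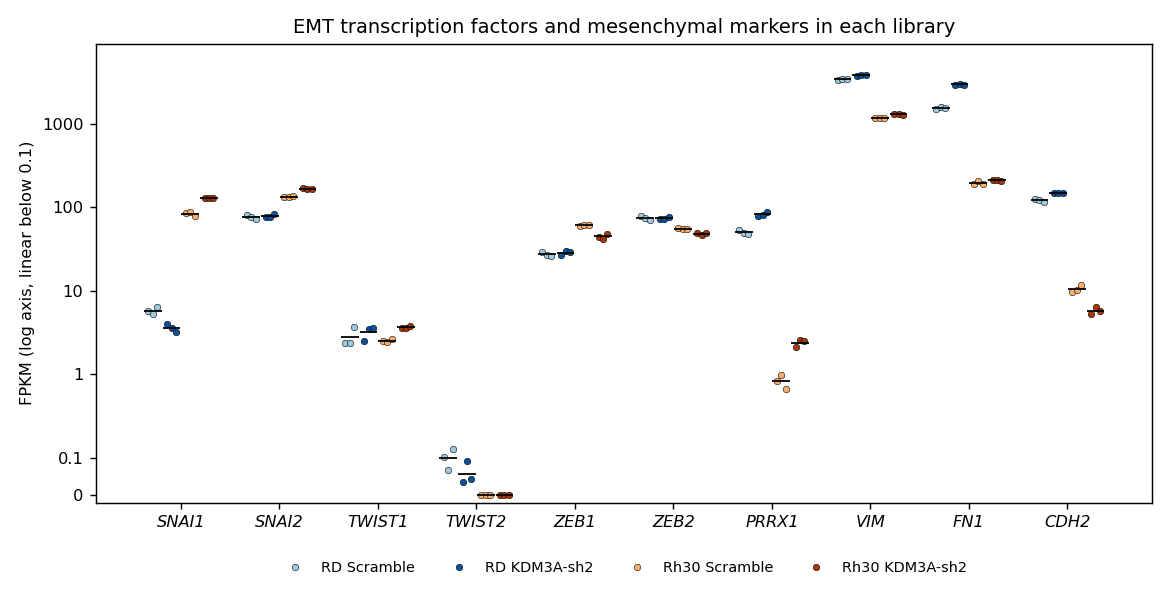
FPKM of each member in each of the 12 libraries (vertical axis, logarithmic above 0.1 and linear below), with 1 point per library and a bar at the mean of each group of 3. SNAI1 is near 5 FPKM in RD and above 79 in Rh30, PRRX1 and CDH2 show the reverse order, and TWIST2 is at 0 in all 6 Rh30 libraries.

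SNAI1 (ENSG00000124216, chr20:49982999-49988886, plus strand, GRCh38) encodes Snail, a repressor of E-cadherin transcription. In Rh30 it was at 84.8, 87.2 and 79.1 FPKM in the Scramble libraries and at 128.0, 127.8 and 128.3 FPKM in the KDM3A-sh2 libraries. Every KDM3A-sh2 library was above every Scramble library, and the log2 fold change was 0.61 (SE 0.04, adjusted p = 0.00029). In RD it was at 5.73, 5.32 and 6.40 FPKM with Scramble and at 3.96, 3.63 and 3.22 FPKM with KDM3A-sh2. The groups again did not overlap, but in the opposite direction, with a log2 fold change of -0.57 (SE 0.10, adjusted p = 0.00517). The effects in the 2 lines differed by 1.17 on the log2 scale (SE 0.10, adjusted p = 1.58e-05). At baseline, the SNAI1 level was 14.4-fold higher in Rh30 than in RD. A processed pseudogene, SNAI1P1, with which SNAI1 may share reads, was at 2.76, 2.72 and 1.39 FPKM in Rh30 Scramble and at 3.15, 3.76 and 4.35 FPKM in Rh30 KDM3A-sh2. It did not pass the test (log2 fold change 0.55, adjusted p = 0.0884), and it was at most 0.157 FPKM in RD.

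MYOD1, the master regulator of muscle identity, moved in the same directions as SNAI1, with means of 134 ± 2.18 FPKM for Scramble and 113 ± 5.13 FPKM for KDM3A-sh2 in RD (SD, n = 3). In Rh30 these means were 769.7 ± 70.3 and 930.5 ± 19.4 FPKM. MYOG, a factor of muscle differentiation, was at 691 ± 40.1 FPKM in Rh30 Scramble and 1017 ± 11.2 FPKM in Rh30 KDM3A-sh2 (log2 fold change 0.56, adjusted p = 4e-04). Of the 4 RMS cell markers, 1 rose and 2 fell in RD, while 2 rose and none fell in Rh30. The part of these markers in the SNAI1 result was not tested.

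SNAI2 (ENSG00000019549, chr8:48917604-48921740, minus strand) encodes Slug, the second Snail family repressor, which also acts in muscle precursor cells. In Rh30 it was at 132.1, 131.1 and 135.7 FPKM with Scramble and at 168.0, 163.9 and 164.5 FPKM with KDM3A-sh2. The groups were well apart, and the level was 1.24-fold higher with KDM3A-sh2 (log2 fold change 0.31, SE 0.03, adjusted p = 0.000957). In RD the libraries overlapped, at 80.4, 77.5 and 72.7 FPKM with Scramble and at 76.2, 76.7 and 84.3 FPKM with KDM3A-sh2. The log2 fold change in RD was 0.04 with a 95% confidence interval from -0.09 to 0.18 (adjusted p = 0.609). The difference between the lines was 0.27 (SE 0.07, adjusted p = 0.01), and it missed the threshold when libraries were rescaled to the same sum (0.21, adjusted p = 0.0524). At baseline SNAI2 was 1.73-fold higher in Rh30.

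TWIST1 (ENSG00000122691, chr7:19020991-19117672, minus strand) was a low-level member in both lines. In Rh30 it was at 2.55, 2.45 and 2.64 FPKM with Scramble and at 3.56, 3.59 and 3.81 FPKM with KDM3A-sh2. The groups did not overlap, and the log2 fold change was 0.39 (SE 0.09, adjusted p = 0.0219). This call was lost without any 1 of Scramble replicate 1 or 2 or KDM3A-sh2 replicate 1, 2 or 3, with adjusted p-values from 0.0585 to 0.0648. In RD, values of 2.41, 2.36 and 3.71 FPKM with Scramble and of 2.52, 3.50 and 3.62 FPKM with KDM3A-sh2 overlapped. The log2 fold change in RD was 0.15 (95% confidence interval -0.28 to 0.57, adjusted p = 0.55), and neither the difference between lines in effect (0.25, adjusted p = 0.4) nor that in baseline level (-0.09, adjusted p = 0.602) passed the test. Its paralog TWIST2 (ENSG00000233608, chr2:238848032-238910543, plus strand) was listed at 0 in all 6 Rh30 libraries. In RD, TWIST2 was at 0.104, 0.068 and 0.130 FPKM with Scramble and at 0.037, 0.093 and 0.043 FPKM with KDM3A-sh2, and these groups overlapped.

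ZEB1 (ENSG00000148516, chr10:31318495-31529814, plus strand) encodes a repressor with zinc fingers at both ends, which binds pairs of E-boxes. In Rh30 it was at 60.3, 60.6 and 61.0 FPKM with Scramble and at 44.7, 42.3 and 48.3 FPKM with KDM3A-sh2. All KDM3A-sh2 libraries were lower, and the log2 fold change was -0.42 (SE 0.05, adjusted p = 0.00245). In RD the libraries overlapped, at 29.3, 27.2 and 26.4 FPKM with Scramble and at 26.62, 29.85 and 29.01 FPKM with KDM3A-sh2, for a log2 fold change of 0.04 (95% confidence interval -0.11 to 0.19, adjusted p = 0.631). The effect in Rh30 minus that in RD was -0.46 (SE 0.08, adjusted p = 0.00214), and at baseline ZEB1 was 2.19-fold higher in Rh30. ZEB1 thus fell in the line in which SNAI1 and SNAI2 rose. Its divergent antisense neighbour ZEB1-AS1 was not called in either line, with means of 15.2 and 18.6 FPKM in Rh30 Scramble and KDM3A-sh2.

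ZEB2 (ENSG00000169554, chr2:144364364-144524583, minus strand), the second ZEB family repressor, showed a smaller change. Rh30 levels were 56.3, 54.4 and 54.3 FPKM with Scramble and at 48.7, 46.4 and 49.3 FPKM with KDM3A-sh2. The groups did not overlap (log2 fold change -0.19, SE 0.04, adjusted p = 0.0181). The call was lost on leaving out Scramble replicate 1 (adjusted p = 0.0626), and likewise for replicates 1 and 2 of KDM3A-sh2 (0.0532 and 0.0619). In RD it was at 77.8, 75.1 and 70.4 FPKM with Scramble and at 72.5, 71.7 and 76.4 FPKM with KDM3A-sh2, with a log2 fold change of -0.02 (95% confidence interval -0.13 to 0.10, adjusted p = 0.827). The difference between lines in effect was -0.17 (adjusted p = 0.064), with values of -0.21 (adjusted p = 0.0368) without RD Scramble replicate 1 and -0.23 (adjusted p = 0.0376) after rescaling to the same sum. At baseline ZEB2 was 1.35-fold higher in RD, so that ZEB2 was above ZEB1 in RD and below it in Rh30. ZEB2-AS1 and the pseudogene ZEB2P1 had group means under 1 FPKM.

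The E-box to which SNAI and ZEB zinc fingers bind, CACCTG or CAGGTG on the other strand, was sought in the 250 bases before the RefSeq start sites (GRCh38.p14) of the 7 members with such a window. ZEB1, with 7 start sites, was the only one of the 7 members with a match, and 20.6% of the 27305 genes with a window had at least 1. All 3 matches are shown on the strand of ZEB1 with up to 10 bases on either side and the E-box in capitals, since ZEB1 is both a member and a factor that reads this word.
ZEB1, 57 bases before a start, chr10:31318350-31318375: gaggtgacagCAGGTGagggccgggt
ZEB1, 242 bases before a start, chr10:31318966-31318989: ccccaccaCACCTGaggaaaactt
ZEB1, 85 bases before the same start, chr10:31319121-31319146: tgtcgtaaacCAGGTGcggtggggag
The general E-box CANNTG, which TWIST1 and muscle factors read and which includes the above, was also present before the start of ZEB2 and before 1 of the 2 starts of CDH2, and 66.7% of all genes with a window had one. The ZEB2 and CDH2 matches are shown in the same way, each on the strand of its gene.
ZEB2, 180 bases before its start, chr2:144520284-144520309: atcacgttttCACATGatgctcacgc
CDH2, 97 bases before its downstream start, chr18:28036723-28036748: atcagtgaatCAGATGtaataagggc
The stretches from ZEB1 and ZEB2 overlap exons annotated in GENCODE 29, and that from CDH2 does not. The windows of PRRX1, VIM, FN1 and TWIST2 did not hold the general E-box.

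PRRX1 (ENSG00000116132, chr1:170662728-170739419, plus strand) encodes a homeobox factor of limb and connective tissue mesenchyme. RD libraries had 53.2, 49.2 and 48.4 FPKM with Scramble and at 79.4, 81.9 and 87.7 FPKM with KDM3A-sh2. The groups were far apart (log2 fold change 0.71, SE 0.06, adjusted p = 0.000138). The Rh30 libraries held PRRX1 at 0.831, 0.998 and 0.662 FPKM with Scramble and at 2.11, 2.57 and 2.48 FPKM with KDM3A-sh2. The ratio of means in Rh30 was 2.87, and the fold change of 0.89 on the log2(FPKM + 1) scale (SE 0.14, adjusted p = 0.00519) understates it. PRRX1 was the only one of the 7 factors called higher in both lines. In Rh30, however, it reached the mean of 1 FPKM required for the test only through the KDM3A-sh2 libraries. With no filter on low values the adjusted p in Rh30 was 0.00985. The difference between the lines in this effect was 0.18 (adjusted p = 0.289), but it was 0.71 (adjusted p = 0.0128) with a pseudocount of 0.1 in place of 1. At baseline PRRX1 was 60.6-fold higher in RD, the largest difference between the lines among the 9 members tested. This ratio rests on a Rh30 Scramble mean of 0.830 FPKM, and here PRRX1 reached the required mean only through the RD libraries.

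**Figure D3:**
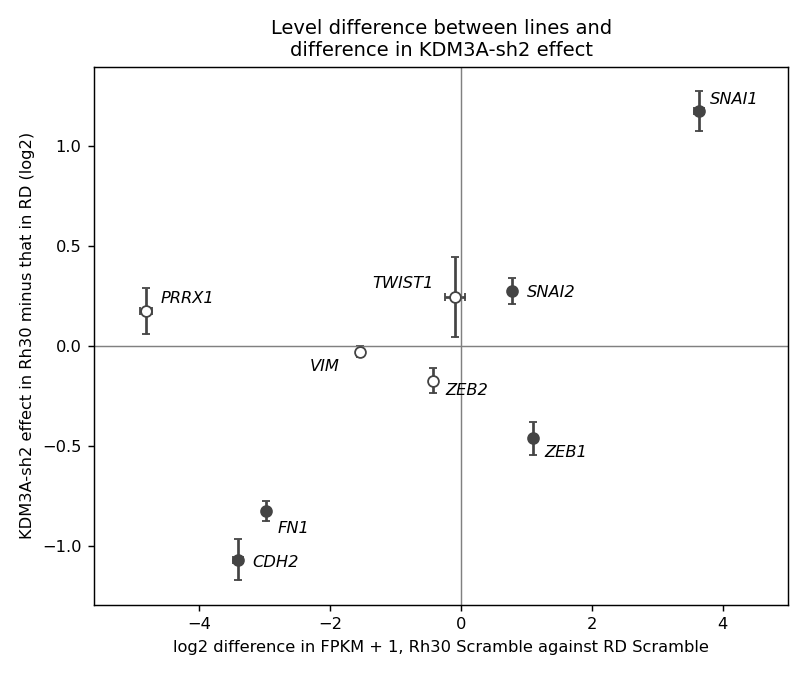
Log2 difference in FPKM + 1 between Rh30 Scramble and RD Scramble (horizontal axis) against the KDM3A-sh2 effect in Rh30 minus that in RD (vertical axis) for the 9 members tested. Bars show the SE of the limma fits, and filled circles mark an adjusted p below 0.05 for the difference in effect. Both axes share the Scramble libraries. SNAI1 lies at the upper right at 3.64 and 1.17, and CDH2 at the lower left at -3.40 and -1.07.

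VIM (ENSG00000026025, chr10:17228259-17237593, plus strand) encodes vimentin, the intermediate filament of mesenchymal cells, and had the highest level of the 10 members in every group. RD libraries had 3374, 3421 and 3424 FPKM with Scramble and at 3774, 3836 and 3839 FPKM with KDM3A-sh2. The Rh30 libraries held VIM at 1187, 1174 and 1167 FPKM with Scramble and at 1299, 1295 and 1283 FPKM with KDM3A-sh2. The groups did not overlap in either line, and the increases were small, with log2 fold changes of 0.16 (SE 0.03, adjusted p = 0.00267) in RD and 0.14 (SE 0.02, adjusted p = 0.00881) in Rh30. The 2 effects differed by -0.03 (95% confidence interval -0.09 to 0.04, adjusted p = 0.526), and by -0.09 (adjusted p = 0.0462) after rescaling to the same sum. On unlogged FPKM, where absolute gains are compared, the difference passed the test (adjusted p = 0.000146). The ratios of means were 1.12 in RD and 1.10 in Rh30. VIM was 2.90-fold higher in RD at baseline. VIM-AS1, which overlaps the locus on the other strand, was not called in either line.

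FN1 (ENSG00000115414, chr2:215360440-215436172, minus strand) encodes fibronectin, a glycoprotein of the extracellular matrix. RD libraries had 1490, 1565 and 1561 FPKM with Scramble and at 2947, 3018 and 2910 FPKM with KDM3A-sh2. The log2 fold change of 0.94 (SE 0.03, adjusted p = 1.24e-05) was the largest of the 9 members in RD. The Rh30 libraries held FN1 at 190.8, 206.7 and 189.4 FPKM with Scramble and at 214.5, 213.0 and 209.1 FPKM with KDM3A-sh2. The Rh30 groups did not overlap, but the test was not passed (log2 fold change 0.12, 95% confidence interval 0.02 to 0.22, adjusted p = 0.0793). Without Rh30 Scramble replicate 2 it was passed (0.16, adjusted p = 0.0254). The effect in Rh30 minus that in RD was -0.83 on the log2 scale (SE 0.05, adjusted p = 1.81e-06). FN1 was 7.87-fold higher in RD at baseline.

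CDH2 (ENSG00000170558, chr18:27950966-28177446, minus strand) encodes N-cadherin, the adhesion molecule that replaces E-cadherin during EMT. In RD it was at 126.5, 122.3 and 117.3 FPKM with Scramble and at 146.8, 150.3 and 149.4 FPKM with KDM3A-sh2. All RD KDM3A-sh2 libraries were higher, by a log2 fold change of 0.28 (SE 0.04, adjusted p = 0.00126). In Rh30 it was at 9.74, 10.4 and 11.9 FPKM with Scramble and at 5.24, 6.34 and 5.76 FPKM with KDM3A-sh2. All Rh30 KDM3A-sh2 libraries were lower, by a log2 fold change of -0.78 (SE 0.10, adjusted p = 0.00224). The difference between the lines was -1.07 (SE 0.10, adjusted p = 3.31e-05), in the direction opposite to that of SNAI1. At baseline CDH2 was 11.4-fold higher in RD.

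Genes that work with the members were taken as lists by function. Their counts are to be read beside the shares over all genes tested, 21.6% higher and 19.5% lower in RD and 15.3% higher and 13.2% lower in Rh30. Of 22 other mesenchymal markers, all tested in RD, 17 rose and 2 fell, with a median log2 fold change of 0.55 beside 0.01 over all genes tested. COL1A2 was among the 17 that rose, although its RD Scramble mean of 0.741 FPKM was under the level required for the test. It entered the test only because its RD KDM3A-sh2 libraries averaged 4.37 FPKM. LUM, a matrix proteoglycan, rose from 20.7 to 71.9 FPKM and COL1A1, a chain of type I collagen, from 125 to 303 FPKM in RD. In Rh30, 4 rose and 7 fell of 18 tested, with a median of -0.05 beside 0.03 over all genes. There TAGLN, an actin-binding protein, fell from 16.9 to 5.44 FPKM and COL1A1 from 12.6 to 5.86 FPKM. COL1A1 thus moved in opposite directions in the 2 lines, with a difference of -2.25 (adjusted p = 2.33e-05).

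Among 7 genes of the N-cadherin complex tested, 3 rose and 2 fell in RD, while none rose and 6 fell in Rh30, with medians of 0.01 and -0.36. CTNND1, the catenin p120 that holds cadherins at the membrane, fell in both lines (log2 fold changes of -0.63 in RD and -0.57 in Rh30). CTNNA1, which links cadherins to actin, rose by 0.29 in RD, and VCL, which encodes vinculin, fell by 0.56 in Rh30. Of 7 receptor genes for fibronectin, 4 rose and 1 fell in RD, and none rose and 5 fell in Rh30, with medians of 0.23 and -0.33. ITGA5, the fibronectin-specific integrin chain, rose from 93.7 to 170.4 FPKM in RD beside its ligand, and ITGB5 from 138 to 180.2 FPKM. In Rh30, ITGB3 fell from 10.5 to 4.39 FPKM and the syndecan SDC4 from 83.4 to 55.1 FPKM. Of 7 partners of the intermediate filaments, 4 rose and 1 fell in RD and 1 rose and 2 fell in Rh30. LMNB1, which encodes lamin B1, fell to 59.2 FPKM from 143 in RD and to 248 FPKM from 301 in Rh30, whereas SYNC rose by 0.68 in RD and SYNM by 0.26 in Rh30 on the log2 scale.

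Corepressors and turnover factors of the SNAI, TWIST and ZEB proteins gave 2 higher and 7 lower calls among 17 tested in RD, and none higher and 9 lower among 17 in Rh30. The medians were -0.09 and -0.14. EZH2, the methyltransferase of Polycomb repressive complex 2, fell from 77.4 to 38.0 FPKM in RD. HDAC2, a histone deacetylase, was lower in both lines, at 360.4 and then 219 FPKM in RD and 543 and then 355 FPKM in Rh30, and AJUBA, a LIM protein that bridges Snail to its corepressors, fell by 0.43 on the log2 scale in Rh30. Of 8 other EMT-linked transcription factors tested in each line, 3 rose and 1 fell in RD and 1 rose and 3 fell in Rh30. SOX4 rose by 0.25 and TCF3, which encodes E proteins that pair with TWIST1 and MYOD1, fell by 0.34 in RD, and SOX9 fell by 0.29 in Rh30.

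Of 21 epithelial genes, 13 in RD and 14 in Rh30 were under the mean required for the test. In RD 2 rose and 2 fell of 8 tested, near the shares over all genes, among them TJP1 from 37.3 to 42.5 FPKM and CLDN4 from 10.9 to 8.65 FPKM. In Rh30 none rose and 2 fell of 7 tested, and TJP1, a tight junction scaffold, fell from 47.4 to 42.1 FPKM. The medians were -0.02 in RD and 0.10 in Rh30.

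**Figure D4:**
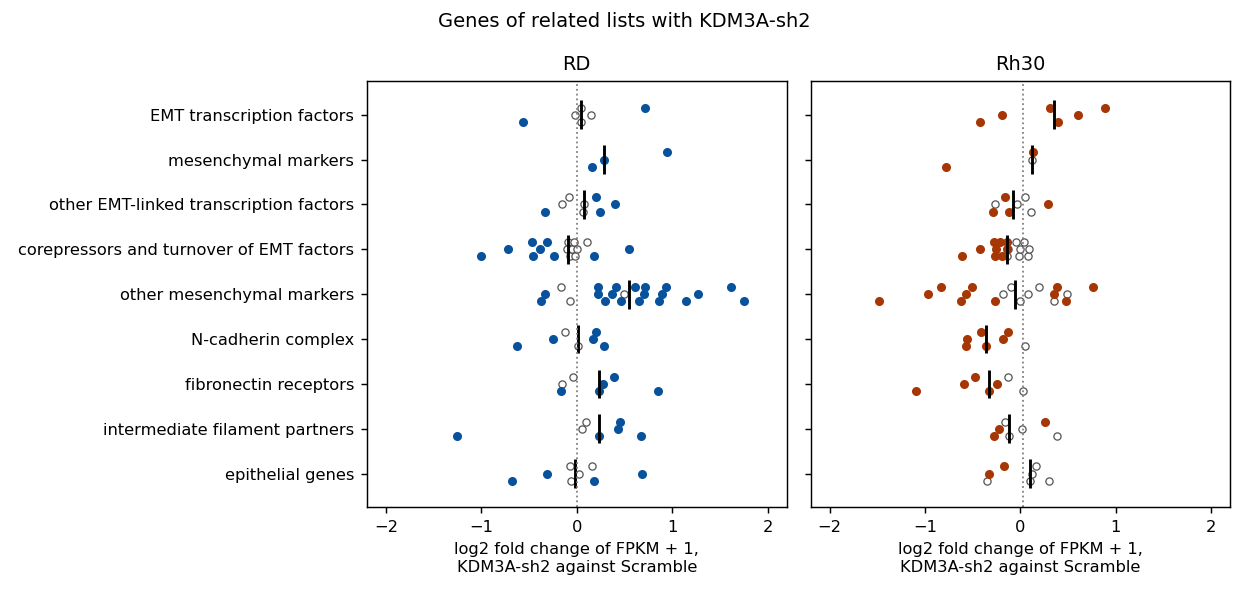
Log2 fold change of FPKM + 1 for KDM3A-sh2 against Scramble (horizontal axis) in RD (left) and Rh30 (right) for each tested gene of 9 lists, with filled points for an adjusted p below 0.05, a black bar at the median of each list and a dotted line at the median of all genes tested. The points of the N-cadherin complex and fibronectin receptors lie mostly below 0 in Rh30, and those of the other mesenchymal markers lie mostly above 0 in RD.

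The patterns over all 12 libraries were dominated by the difference between lines. Among genes whose mean reached 10 FPKM, those most like SNAI1 were RPL29 and ATOH8 (Pearson r of 0.9996 and 0.9991 on log2(FPKM + 1)). CDH2 was most like ADAM9 and OSBPL6 (0.9994 and 0.9990), PRRX1 most like PRR32 and GSTK1 (0.9990 and 0.9985), FN1 most like PSAP and NEFM (0.9993 and 0.9992), and VIM most like NPTX2 and RCAN2 (0.9998 and 0.9996). SNAI2 was closest to EPHA7 and THOC2 (0.9975 and 0.9973), ZEB1 to APBB2 and PODXL (0.9909 and 0.9902), and ZEB2 to ABL2 and SNX13 (0.9953 and 0.9952). TWIST1, which did not pass the test between the lines, had its highest values with NOL3 and NARFL at 0.86 and 0.83. These are descriptions over 12 libraries that share 2 lines and 4 groups.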

How the data were processed

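The libraries were polyadenylated, directional single-end libraries sequenced on an Illumina HiSeq. Per the labels, the authors aligned reads with GSNAP to GRCh38 and made the deposited FPKM values with Cufflinks. The annotation release and the use of strand in counting are not given in the sources used here, so a gene and its antisense neighbour cannot be told apart with certainty. FPKM holds no depth, so no counting interval was computed.

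The table held 66095 rows. The row with the higher mean was kept for repeated identifiers (120 rows left out), and 17 genes with a placeholder value were left out of the fits they entered. Log2(FPKM + 1) was fitted with limma 3.58.1 (trend, R 4.3.3) where a gene's mean reached 1 FPKM over the libraries of the fit, 6 within a line or between the Scramble groups and 12 for the interaction. Tests were two-sided, with Benjamini-Hochberg adjustment over all genes tested and a threshold of 0.05. The study used ANOVA on FPKM, which was kept as an alternative beside another pseudocount (0.1), no filter, rescaled sums, a replicate block and leaving out each library. The fits were tested on simulated data. Gene positions were from GENCODE 29.

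The 10 members and the related lists were chosen with earlier results of these data known. All members were named, and of each list of related genes those 2 per line that passed the test with the largest change, had a mean above 5 FPKM and showed no overlap between groups. One gene that this rule names is not reported here. CDH1 and the markers of cell type and line were named as checks. DUB3, AFDN, CDH2-AS1 and TWIST1-AS1 were not found under these symbols. VIM-AS1, SNAI3-AS1, ZEB1-AS1, ZEB2-AS1, ZEB2P1 and SNAI1P1 were examined, and none was called in either line.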

Additional observations from a re-analysis of the deposited data

Results flagged for a closer look

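The KDM3A-sh2 effect differed between RD and Rh30 for 5 of the 9 members tested, by limma's interaction term over 12 libraries. Over all 18517 genes tested, this difference was called higher for 14.4% and lower for 13.4%. The effect in Rh30 minus that in RD was 1.17 on the log2 scale for SNAI1 and 0.27 for SNAI2. It was -0.46 for ZEB1, -0.83 for FN1 and -1.07 for CDH2. The SNAI2 call was lost when libraries were rescaled to the same sum (adjusted p = 0.0524). For SNAI1 and CDH2, the 3 KDM3A-sh2 libraries lay on opposite sides of the Scramble libraries in the 2 lines. The cause was not tested. Subtype, line, medium and the depth of KDM3A depletion, which was less in Rh30, cannot be told apart with 1 line of each subtype.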

How the results depend on the processing

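The number of members called was 5 in RD under every alternative run, 6 to 8 in Rh30, 8 to 9 between the Scramble groups (9 with TWIST2, tested only when no filter was set) and 5 to 7 for the difference between lines. Same-numbered libraries did not deviate together (correlations from -0.0744 to 0.0559). With a replicate block, the members called were 5 in RD, 6 in Rh30, 8 at baseline and 5 for the interaction. The calls lost in Rh30 under the replicate block were those of TWIST1 (adjusted p = 0.0669) and ZEB2 (0.0561). On the log2 scale, directions turned for uncalled values only. ZEB2 in RD was 0.0179 after rescaling and between -0.0550 and 0.0167 with 1 library left out, SNAI2 in RD was between -0.00605 and 0.0731, and TWIST1 at baseline was between -0.175 and 0.0679. Over all genes, Rh30 calls of 2719 higher and 2347 lower became 1798 and 1623 with the block, 1621 and 1594 without KDM3A-sh2 replicate 1, and 1759 and 1691 without KDM3A-sh2 replicate 2. Rescaling moved the median baseline difference of all genes from -0.04 to -0.14. On unlogged FPKM, where absolute gains are compared, the interaction was also called for VIM (adjusted p = 0.000146) and for PRRX1 (0.00013). The sign turned for PRRX1, since its gain in FPKM was larger in RD.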
